A study of Mus musculus with 2 samples.

Results

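The genes described here encode 10 secreted signals that can act on hepatic stellate cells, the collagen-producing cells of the liver: the transforming growth factors Tgfb1, Tgfb2 and Tgfb3, the platelet-derived growth factors Pdgfa, Pdgfb, Pdgfc and Pdgfd, the matrix-associated proteins Ccn1 and Ccn2, and osteopontin (Spp1). They were chosen by name, and all 10 were found among the 19073 features measured in both libraries, where Ccn1 and Ccn2 stand under their older symbols Cyr61 and Ctgf. Single-cell RNA sequencing of fixed liver cells was performed on male p16-Tom mice of C57BL/6 background, heterozygous for p16-Cre ERT2 and carrying R26-CAG-LSL-tdTomato-WPRE, after 4 weeks of carbon tetrachloride (CCl4) and with tamoxifen. All cells therefore came from CCl4-treated, tamoxifen-treated animals, and no oil-treated library was analysed here. In this line tamoxifen marks cells that transcribe p16Ink4a strongly enough to switch on tdTomato, in any cell type, and the cells were sorted by a nuclear dye, a mitochondrial dye and tdTomato into a Tom- (p16low) and a Tom+ (p16high) fraction. Each fraction gave 1 library. The study collected hepatocytes by this sort, so shares of cells and UMIs below describe the sorted cells and not the liver. The number and age of the mice behind each library are not stated in the sources used here, so every difference below compares these 2 libraries, no p-value can be given, and the 95% intervals cover counting error only.

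The Tom- library held 23220 barcodes and 681279005 unique molecular identifiers (UMIs), and the Tom+ library 16339 barcodes and 715333889 UMIs. After the study's filters 20159 Tom- and 13378 Tom+ cells remained, with medians of 26694 and 36075 UMIs, and 372 of these barcodes occurred in both libraries. Hepatocytes were the clusters that remained once those of low gene number and those with immune, endothelial, mesenchymal or bile duct markers had been set aside, and they numbered 10918 Tom- and 9948 Tom+ cells. tdTomato itself lay between 59.5 and 138 CPM (a gene's UMIs relative to all UMIs of the summed cells) in the 8 lobule layers of Tom- hepatocytes and between 666 and 1013 CPM in those of Tom+ hepatocytes, in the order of the labels. The cells set aside fell into classes by their markers. Small cells, whose median UMI count was well below that of hepatocytes, are called endothelial-like (568 cells), macrophage-like (498 cells), stellate-like (236 cells) and mesothelial-like (48 cells). Clusters that held such markers and whose median UMI count was at least 0.5 of the hepatocyte median are named by those markers and called hepatocyte-sized, with class medians from 26121 to 46367 UMIs against 33673 in hepatocytes. A further 5582 cells (4824 Tom- and 758 Tom+, with a median of 14806 UMIs) stayed unnamed, with endothelial and macrophage marker sums of 473 and 1086 CPM. Among the hepatocyte-sized cells, 56 held the cholangiocyte markers Krt19, Epcam and Krt7 at 89.1, 80.6 and 42.2 CPM. Hepatocyte RNA was present in every class, since 10 hepatocyte markers together took 154873 CPM in hepatocytes and between 133613 and 174804 CPM in the small-cell classes, so a level in a small-cell class is that of a mixture.

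After injury, stellate cells leave a quiescent, vitamin A-storing state and become matrix-producing, contractile cells. TGF-beta ligands are secreted in a latent form and, once freed, drive collagen transcription through SMAD proteins, while PDGF dimers act on PDGF receptors to drive proliferation and migration. PDGF-A and PDGF-B are released active, whereas PDGF-C and PDGF-D need cleavage of a CUB domain. Ccn1 and Ccn2 are matricellular proteins and familiar transcriptional targets of YAP and TEAD, and osteopontin is a phosphoprotein ligand of integrins and Cd44, known in the liver from bile duct cells and macrophages.

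Ccn2, connective tissue growth factor, was highest in the stellate-like cells. It measured 1009.8 CPM (959.8 to 1062) in Tom- and 1255 CPM (1159 to 1358) in Tom+ stellate-like cells, against 9.80 and 7.76 CPM in hepatocytes of the same libraries. Over both libraries the stellate-like level was 122-fold that of hepatocytes (116 to 128). With each cell thinned to 5000 UMIs, 82.6% of stellate-like cells (75.0 to 88.6%) and 4.21% of hepatocytes (3.95 to 4.5%) held a Ccn2 UMI, and without thinning the shares were 89.4% and 23.4%. The thinned share rests on 132 of the 236 stellate-like cells, because the others were shallower. Endothelial-like cells came next, at 273 CPM in Tom- and 271 CPM in Tom+ cells, followed over both libraries by hepatocyte-sized cells with stellate markers at 183 CPM and cells with cholangiocyte markers at 136 CPM. Col1a1 and Dcn, which define the stellate-like class, were at 953 and 962 CPM in it, and Acta2, the actin of activated stellate cells, was at 8.96 CPM. Probe-based counts compare 1 gene across cells and not different genes with each other, so no order of members within a class is drawn.

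Ccn1, the other CCN member, was spread differently. It was at 115 CPM (98.8 to 134) in Tom- stellate-like cells and 48.1 CPM (30.8 to 71.6) in Tom+ stellate-like cells, while hepatocytes held 67.9 CPM (67.1 to 68.7) in Tom- and 77.9 CPM (77.0 to 78.8) in Tom+ cells. In the Tom+ library the stellate-like level was thus below that of hepatocytes, and the class with the highest level there, hepatocyte-sized cells with stellate markers, was at 78.5 CPM (75.3 to 81.8), an interval that overlaps that of hepatocytes. The stellate-like cells also held hepatocyte RNA, and its part in their Ccn1 level was not tested. Hepatocytes, 20866 of the 33537 cells kept and 67.2% of all their UMIs, held 71.7% of all Ccn1 UMIs and 18.8% of all Ccn2 UMIs.

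Of the TGF-beta ligands, Tgfb1 was highest in macrophage-like and endothelial-like cells. Macrophage-like cells held 87.3 CPM (77.8 to 97.6) in the Tom- and 66.9 CPM (54.2 to 81.7) in the Tom+ library, and endothelial-like cells 63.9 CPM (57.1 to 71.3) and 71.9 CPM (60.04 to 85.4). These classes changed places between the libraries, so their order is not fixed, whereas both stood above stellate-like cells, at 37.8 CPM (28.6 to 48.9) in Tom- and 34.1 CPM (19.9 to 54.6) in Tom+ cells, and above hepatocytes, at 5.24 and 4.01 CPM. The level over both libraries was 17.6-fold that of hepatocytes in macrophage-like cells (15.9 to 19.5) and 14.3-fold in endothelial-like cells (12.9 to 15.8).

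Tgfb2 and Tgfb3, which share receptors with Tgfb1, were sparse, with 408 and 332 UMIs among all kept cells. In the Tom- library both were highest in the 34 mesothelial-like cells, cells with Msln and Upk3b at 195 and 127 CPM that also held Krt19 and Krt7 at 79.95 and 74.0 CPM. There Tgfb2 measured 23.7 CPM (13.5 to 38.5) and Tgfb3 26.7 CPM (15.8 to 42.1). In the 14 Tom+ mesothelial-like cells Tgfb2 had 0 UMIs, which allows up to 12.2 CPM at 3 counts, and Tgfb3 had 1 UMI (4.06 CPM, 0.103 to 22.6). Stellate-like cells held 6.97 CPM of Tgfb2 over both libraries. For Tgfb3 they held 5.30 CPM (2.29 to 10.4) in the Tom- and 14.0 CPM (5.64 to 28.9) in the Tom+ library, on 8 and 7 UMIs, which was the highest Tgfb3 level of the Tom+ classes. Hepatocytes held 0.224 CPM of Tgfb2 and 0.120 CPM of Tgfb3 over both libraries. The cells with cholangiocyte markers held 7.11 CPM of Tgfb2 over both libraries, and in the Tom+ library theirs was the highest Tgfb2 level of the classes, 12.4 CPM (4.53 to 26.9) on 6 UMIs. The mesothelial-like level thus rests on 1 library and 34 cells.

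The PDGF genes divided by cell class. Pdgfb, whose product recruits pericytes and stellate cells, measured 19.8 CPM (15.4 to 25.0) in Tom- and 19.5 CPM (13.0 to 28.2) in Tom+ macrophage-like cells, and 4.99 and 14.5 CPM in endothelial-like cells. In hepatocytes it was at 0.269 and 0.311 CPM, 67.9-fold below the macrophage-like level over both libraries. Pdgfd was highest in the cells with cholangiocyte markers, at 35.7 CPM (27.1 to 46.2) in Tom- and 67.9 CPM (46.8 to 95.4) in Tom+ cells, and stood at 17.4 CPM in stellate-like and 15.1 CPM in endothelial-like cells over both libraries. Hepatocytes held 0.225 and 0.195 CPM of Pdgfd. Both genes were near 0 in hepatocytes, which held 21.1% of all Pdgfb and 14.3% of all Pdgfd UMIs.

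For Pdgfc and Pdgfa the highest class stood 2.80-fold and 2.32-fold above hepatocytes over both libraries. Pdgfc measured 16.3 CPM (15.9 to 16.7) in Tom- and 20.1 CPM (19.7 to 20.6) in Tom+ hepatocytes, 55.1 CPM (47.6 to 63.4) and 41.1 CPM (31.3 to 53.1) in macrophage-like cells, and 7.50 CPM (5.58 to 9.86) in endothelial-like cells over both libraries. Mesothelial-like cells, at 41.2 CPM over both libraries, did not differ from macrophage-like cells beyond counting error (1.24-fold, 0.88 to 1.79), and in the Tom+ library the 11 cells with cholangiocyte markers were highest in Pdgfc, at 43.2 CPM (26.8 to 66.1). Pdgfa measured 12.3 CPM (11.9 to 12.6) in Tom- and 16.7 CPM (16.3 to 17.1) in Tom+ hepatocytes and ranged among the other named small-cell classes and the cells with cholangiocyte markers from 12.9 CPM in endothelial-like cells to 33.7 CPM (26.3 to 42.5) in the latter. Hepatocytes held 67.9% of all Pdgfc and 68.8% of all Pdgfa UMIs, close to their 67.2% of the UMIs of all genes. The other classes also held hepatocyte RNA, and its part in their Pdgfc and Pdgfa levels was not tested.

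Spp1 was highest by far in 1 class. The cells with cholangiocyte markers held 275 CPM (250.4 to 302) in the Tom- and 383 CPM (330 to 442) in the Tom+ library, which was 236-fold the hepatocyte level over both libraries (213 to 261), although these were only 45 and 11 cells. Macrophage-like cells followed with 15.2 CPM (11.5 to 19.9) in Tom- and 3.49 CPM (1.13 to 8.14) in Tom+ cells. Endothelial-like cells, at 1.60 and 1.67 CPM, were no higher than hepatocytes, at 1.23 and 1.31 CPM, beyond counting error. Stellate-like cells had 6 UMIs in the Tom- library and 0 in the Tom+ library. By number of UMIs, hepatocytes held 43.3% of all Spp1.

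**Figure D1:**
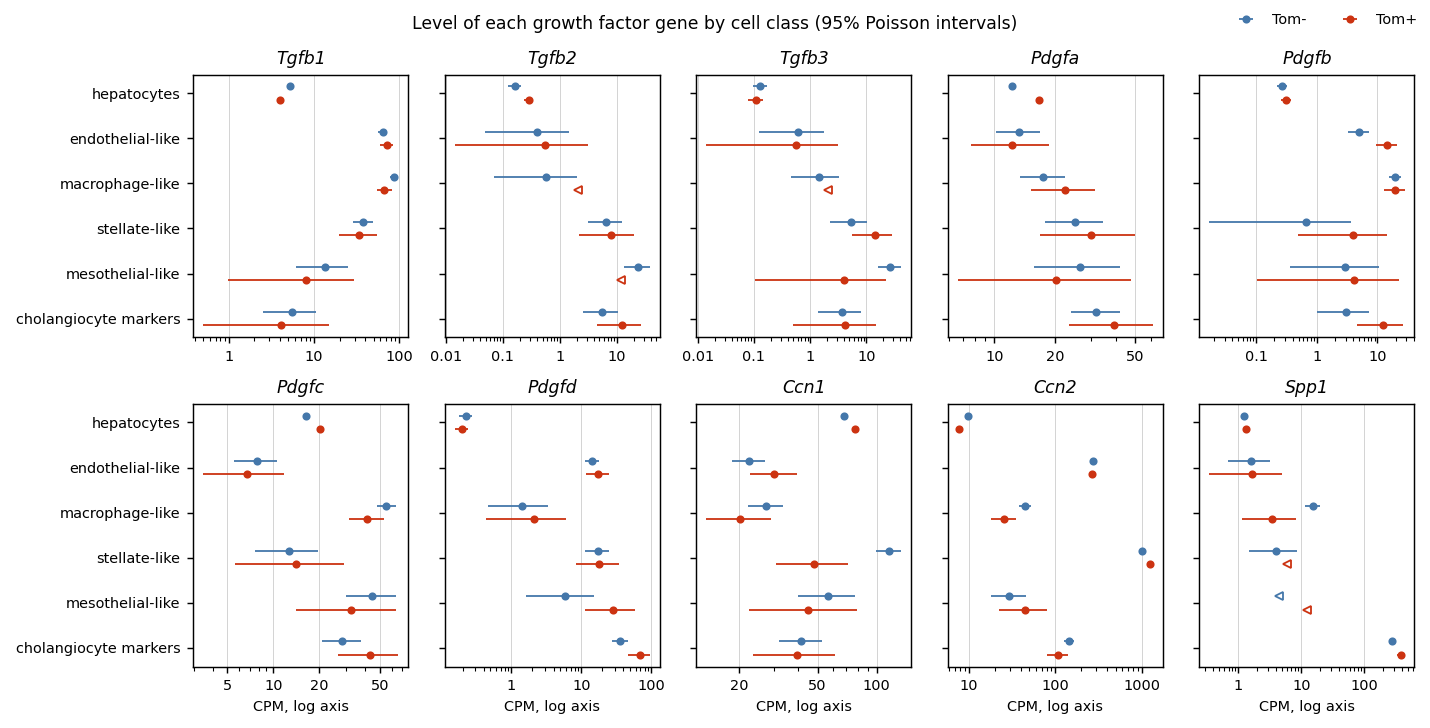
Level of each member in CPM (log axis) by cell class, with Tom- and Tom+ libraries as separate points and bars for the 95% Poisson interval; triangles mark 0 UMIs at the 3-count limit. Ccn2 lies at 1009.8 and 1255 CPM in stellate-like cells and Spp1 at 275 and 383 CPM in the cells with cholangiocyte markers, while Pdgfa lies at 26.4 and 33.7 CPM in these classes over both libraries.

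For position in the lobule, hepatocytes were ordered by a score of pericentral and periportal marker genes that holds no member, and divided into 8 layers of equal size, of which the outer pairs are called periportal (5217 cells) and pericentral (5216 cells). The score is continuous, and 3755 cells lay within 0.02 of the periportal boundary and 605 cells within 0.02 of the pericentral boundary. The single markers Sds and Glul, which are part of the score and so only describe it, ran from 2604 to 202 CPM and from 5.50 to 421 CPM from the portal to the central layer in Tom- cells.

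Ccn1, Pdgfc and Pdgfa were pericentral in both libraries. Ccn1 was higher in each successive layer of the 8 in both libraries, from 32.0 to 185 CPM in Tom- and from 26.4 to 126 CPM in Tom+ hepatocytes. Pericentral over periportal, it was 152 against 33.7 CPM in Tom- cells (4.52-fold) and 116 against 28.0 CPM in Tom+ cells (4.16-fold). The pericentral Tom- level, 152 CPM, lay above that of Tom- stellate-like cells, 115 CPM (98.8 to 134). The latter is the level of a mixture, since hepatocyte markers took 144850 CPM in Tom- stellate-like cells and 158051 CPM in Tom- hepatocytes. It therefore does not rank stellate cells themselves against hepatocytes. Pdgfc went from 7.99 to 41.5 CPM and from 7.03 to 36.7 CPM between the first and last layers, and was 4.56-fold and 5.13-fold higher pericentrally. Its pericentral level, 36.2 CPM in Tom- and 31.7 CPM in Tom+ cells, was below that of macrophage-like cells in the Tom- library and near the lower bound of that in the Tom+ library. Pdgfa stayed between 9.26 and 13.5 CPM in the 6 portal layers of Tom- cells and reached 29.1 CPM in the most central one, with 11.03 and 29.4 CPM in the end layers of Tom+ cells, and was 2.47-fold and 2.31-fold higher pericentrally.

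Spp1 had the opposite direction, Ccn2 was nearly level among the hepatocytes as defined here, and Tgfb1 differed by less than 1.5-fold pericentral over periportal. Spp1 was 0.775 CPM pericentrally and 1.70 CPM periportally in Tom- cells (2.19-fold lower) and 1.26 against 1.84 CPM in Tom+ cells (1.45-fold lower). The pericentral Tom+ value rests on few cells, and without hepatocytes of 5 or more Spp1 UMIs the levels were 0.616 against 1.63 CPM in Tom+ and 0.592 against 1.36 CPM in Tom- cells, log2 ratios of -1.41 and -1.20. Ccn2 stayed between 9.16 and 10.1 CPM in the 8 Tom- layers and between 6.79 and 8.67 CPM in the 8 Tom+ layers, and Tgfb1 between 4.64 and 6.08 CPM and between 3.09 and 4.69 CPM. Pericentral over periportal, the Tgfb1 log2 ratio was 0.16 (-0.05 to 0.36) in Tom- and 0.29 (0.05 to 0.53) in Tom+ cells. The level Ccn2 profile depended on which clusters were set aside, since with a marker limit of 4 times the median cluster, which keeps more cells, its pericentral over periportal log2 ratio was -0.87 in Tom- and -1.20 in Tom+ cells. Counting as higher or lower a gene past 1.5-fold that had 1 CPM or more on either side and 50 UMIs or more on both together, 6 of the 10 members could be compared. In Tom- cells 3 were higher and 1 lower pericentrally, beside 11.5% of all genes compared that were higher and 5.64% that were lower. In Tom+ cells 3 were higher and 0 lower, beside 14.0% and 5.85% of all genes, and Spp1 passed as lower there without the cells just named. The median gene was itself pericentral by 0.15 in Tom- and 0.21 in Tom+ cells on the log2 scale, and the members' median log2 ratio was 0.73 and 0.75. Tgfb2, Tgfb3, Pdgfb and Pdgfd were under the minimum, and the Tgfb2 level of 0.347 against 0.0790 CPM in Tom- and 0.452 against 0.0175 CPM in Tom+ cells rests on 17 against 11 and on 64 against 1 UMIs. The Tgfb2 log2 ratios were 2.13 (0.95 to 3.37) in Tom- and 4.69 (2.16 to 10.0) in Tom+ cells.

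**Figure D2:**
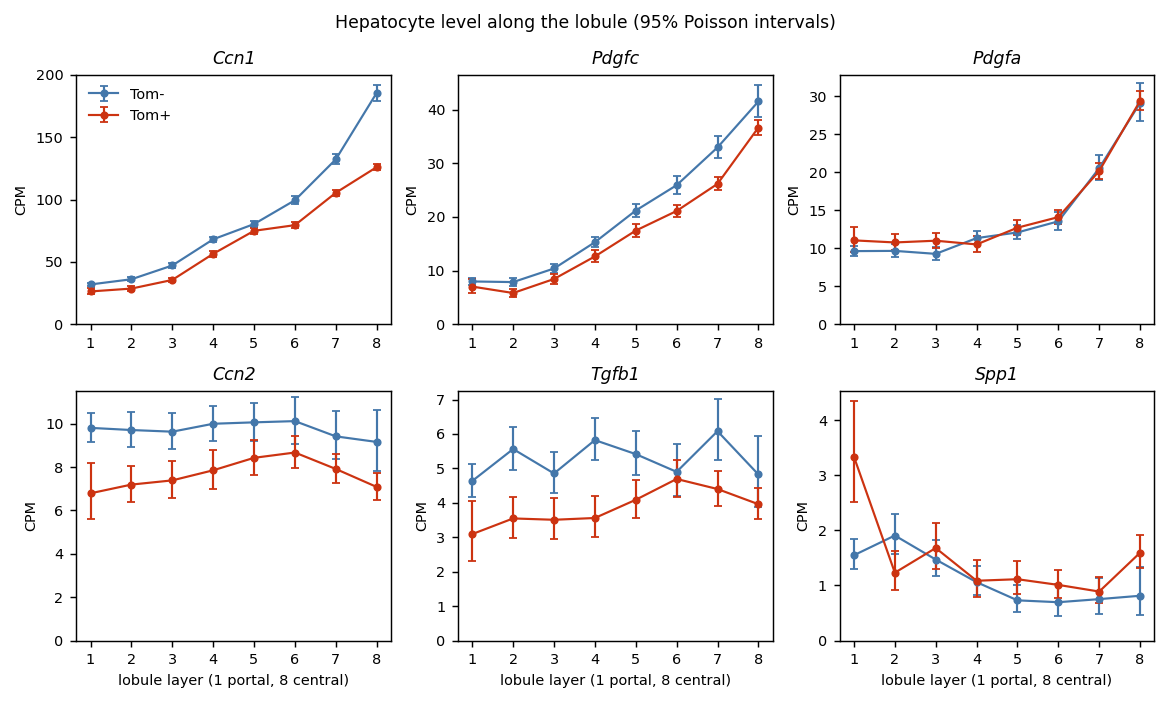
Hepatocyte level in CPM (linear axes from 0) of 6 members in the 8 lobule layers, from portal (1) to central (8), for each library, with 95% Poisson intervals. Ccn1, Pdgfc and Pdgfa reach 185, 41.5 and 29.1 CPM in the most central Tom- layer, and Spp1 is highest on the portal side. Ccn2 stays nearly level, and Tgfb1 lies between 3.09 and 4.69 CPM in the Tom+ layers.

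The promoters of the pericentral members are shown because Ccn1 is a familiar TEAD target and Pdgfc and Pdgfa share its gradient. The 250 bases before each RefSeq transcript start (GRCm38.p6) are given 5′ to 3′ on the gene's strand, in lower case, with matches to the TEAD motif GGAATG (either strand) and to the CArG box, the serum response factor site, in capitals. The windows are chr3:145649986-145650235 (minus strand) for Ccn1, chr3:81036166-81036415 (plus strand) for Pdgfc, and chr5:138994282-138994531 and chr5:138994945-138995194 (both minus strand) for the 2 Pdgfa starts.
Ccn1: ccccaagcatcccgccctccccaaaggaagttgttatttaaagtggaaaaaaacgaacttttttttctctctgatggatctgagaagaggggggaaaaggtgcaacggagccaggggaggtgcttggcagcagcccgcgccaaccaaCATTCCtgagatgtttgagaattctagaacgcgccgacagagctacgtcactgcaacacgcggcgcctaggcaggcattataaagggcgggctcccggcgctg
Pdgfc: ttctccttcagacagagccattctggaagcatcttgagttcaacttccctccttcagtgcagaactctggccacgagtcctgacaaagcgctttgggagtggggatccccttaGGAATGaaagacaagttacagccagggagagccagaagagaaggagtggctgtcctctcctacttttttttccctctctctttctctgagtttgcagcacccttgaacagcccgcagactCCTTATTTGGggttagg
Pdgfa, start 1: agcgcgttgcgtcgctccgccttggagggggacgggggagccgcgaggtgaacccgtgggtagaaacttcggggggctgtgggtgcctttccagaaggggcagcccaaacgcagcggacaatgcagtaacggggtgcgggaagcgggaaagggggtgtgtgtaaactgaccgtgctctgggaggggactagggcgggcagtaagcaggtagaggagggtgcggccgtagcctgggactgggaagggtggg
Pdgfa, start 2: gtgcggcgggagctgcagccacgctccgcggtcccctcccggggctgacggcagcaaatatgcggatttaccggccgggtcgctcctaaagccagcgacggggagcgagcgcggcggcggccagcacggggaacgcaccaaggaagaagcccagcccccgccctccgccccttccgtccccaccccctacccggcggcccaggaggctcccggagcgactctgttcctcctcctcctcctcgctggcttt
Ccn1 had 1 TEAD match, 103 bases before the start and on the opposite strand, and Pdgfc had 1 TEAD match at 137 bases and 1 CArG box at 17 bases before the start. Both Pdgfa windows held neither. Of 32851 mouse promoter windows of this length 12.6% held the TEAD letters and 1.47% the CArG box, so a match is common for the first and describes letters only. The other 5 motifs were searched on both strands: SMAD (CAGAC, in 42.2% of all windows), AP-1 (TGANTCA, 6.75%), EGR (GCGNGGGCG, 4.70%), TCF/LEF (CTTTGA, 13.8%) and CRE (TGACGTCA, 1.55%). Among 7 members with a promoter entry these gave an EGR match in Tgfb1 and SMAD matches in Tgfb2, Pdgfc, Pdgfd and Spp1. Tgfb3, Pdgfb and Ccn2 had no promoter entry and were not searched. Ccn1, Pdgfc and Pdgfa lie at chr3:145646971-145649985, chr3:81036416-81214040 and chr5:138976014-139000792.

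The sort by reporter was then compared within hepatocytes. Summed over all hepatocytes, Pdgfa was higher in Tom+ cells (16.7 against 12.3 CPM, log2 ratio 0.44, 0.39 to 0.49), as were Pdgfc (20.1 against 16.3 CPM, 0.30, 0.25 to 0.35) and Ccn1 (77.9 against 67.9 CPM, 0.20, 0.17 to 0.22). Tgfb1 was lower (4.01 against 5.24 CPM, -0.39, -0.48 to -0.29), and so was Ccn2 (7.76 against 9.80 CPM, -0.34, -0.40 to -0.27). Spp1 did not differ beyond counting error (1.31 against 1.23 CPM, 0.09, -0.09 to 0.27). The other 4 members were under the minimum for a call. Tgfb2 was at 0.286 against 0.161 CPM (0.83, 0.37 to 1.29), on 113 against 63 UMIs, and at 0.14 with the 8 layers at equal weight. The intervals of Tgfb3 (-0.26, -0.88 to 0.35), Pdgfb (0.21, -0.18 to 0.60) and Pdgfd (-0.21, -0.67 to 0.25) spanned 0. None of the 6 members compared passed 1.5-fold, beside 2.59% of all genes that were higher and 0.898% that were lower.

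The libraries did not sample the lobule alike. The most portal layer held 2218 Tom- and 391 Tom+ hepatocytes, and the most central layer 599 Tom- and 2009 Tom+ hepatocytes. Within layers, Ccn1 and Pdgfc turned to the other direction. Ccn1 was lower in Tom+ cells in 8 of 8 layers, with the interval below 0 in all 8, from -0.10 in layer 5 to -0.56 in layer 8, where it was 126 against 185 CPM. Pdgfc was lower in 8 of 8 layers, with 7 intervals below 0, from -0.18 to -0.43. With the 8 layers at equal weight, the Tom+ over Tom- log2 ratio was -0.35 for Ccn1 (66.6 against 85.1 CPM) and -0.27 for Pdgfc (16.9 against 20.4 CPM), and that of Pdgfa shrank to 0.06 (14.95 against 14.4 CPM). Ccn2 and Tgfb1 kept their direction, lower in 8 of 8 layers with 8 and 6 intervals below 0, at -0.35 and -0.45 with equal weights. Spp1 was higher in 7 of 8 layers, with 2 intervals above 0 and 1 below. In layer 1 it was 3.33 against 1.55 CPM (1.11, 0.62 to 1.57), and 2.62 against 1.33 CPM without hepatocytes of 5 or more Spp1 UMIs. In layer 8 the ratio was 0.97 (0.19 to 1.85), with 0.626 against 0.326 CPM without such cells. Layer 2 had the reverse direction, at -0.63 (-1.14 to -0.13). Cells of 1 layer were alike in score but not in every marker. In layer 3 the portal markers Sds (2232 against 1755 CPM) and Cyp2f2 (279 against 170 CPM) were higher in Tom+ cells. The central marker Glul was higher there too (14.6 against 8.77 CPM), and in layer 4 Cyp2f2 was close (93.1 against 96.0 CPM). The part of such position differences in the ratios within layers was not tested.

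The layers were cut on 1 scale for both libraries. When instead each library was cut into its own 8 layers, so that the pericentral Tom- cells included less central ones, the pericentral log2 ratio was -0.04 for Ccn1 and 0.20 for Pdgfc, while Ccn2 and Tgfb1 were at -0.52 and -0.43 and Pdgfa, at 0.62, passed 1.5-fold. The pericentral direction of Pdgfc thus turned, and Ccn1 kept its direction at a far smaller size. The periportal values in that setting were -0.05 for Ccn1 and -0.14 for Pdgfc. With hepatocytes clustered again on their own and grouped by zone-named clusters in place of layers, the log2 ratio was -0.45 for Ccn1 and -0.24 for Pdgfc among pericentral clusters. These held 1377 Tom- and 3827 Tom+ cells, while 4163 Tom- and 3347 Tom+ hepatocytes lay in clusters without a zone name and were left out.

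Among pericentral hepatocytes 1 of 6 members passed 1.5-fold, beside 1.01% of all genes that were higher and 1.04% that were lower in Tom+ cells. It was Spp1, at 1.26 CPM in Tom+ and 0.775 CPM in Tom- cells (log2 ratio 0.71, 0.19 to 1.25). Few cells carried it: 6 Tom+ cells with 5 or more Spp1 UMIs held 92 of the 179 UMIs, and 1 Tom- cell held 9 of 38. Without such cells the levels were 0.616 and 0.592 CPM and the log2 ratio was 0.06. The other members stood at -0.43 (Tgfb1), -0.39 (Ccn1), -0.32 (Ccn2), -0.19 (Pdgfc) and 0.08 (Pdgfa). With cells thinned to 5000 UMIs the Ccn2 value was 0.01, while its sign stayed the same in 17 of 18 alternatives. Among periportal hepatocytes 0 of 6 members passed, beside 0.661% higher and 1.06% lower, and the values were -0.55 (Tgfb1), -0.46 (Ccn2), -0.36 (Pdgfc), -0.27 (Ccn1), 0.17 (Pdgfa) and 0.12 (Spp1).

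A cluster of 1652 hepatocytes that was 96.6% Tom+ and had Glul at 246 CPM held Ccn1 at 88.7 CPM and Pdgfc at 26.3 CPM. The other Glul-rich cluster, of 2693 hepatocytes and 67.8% Tom+, with Glul at 394 CPM, held 152 and 36.5 CPM, and Pdgfa was close between them (25.3 and 26.9 CPM). In the clustering of hepatocytes on their own, 3 clusters with 2065 cells in all were 90% or more Tom+, and without these the pericentral log2 ratio of Ccn1 was -0.29 and that of Pdgfc -0.16.

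**Figure D3:**
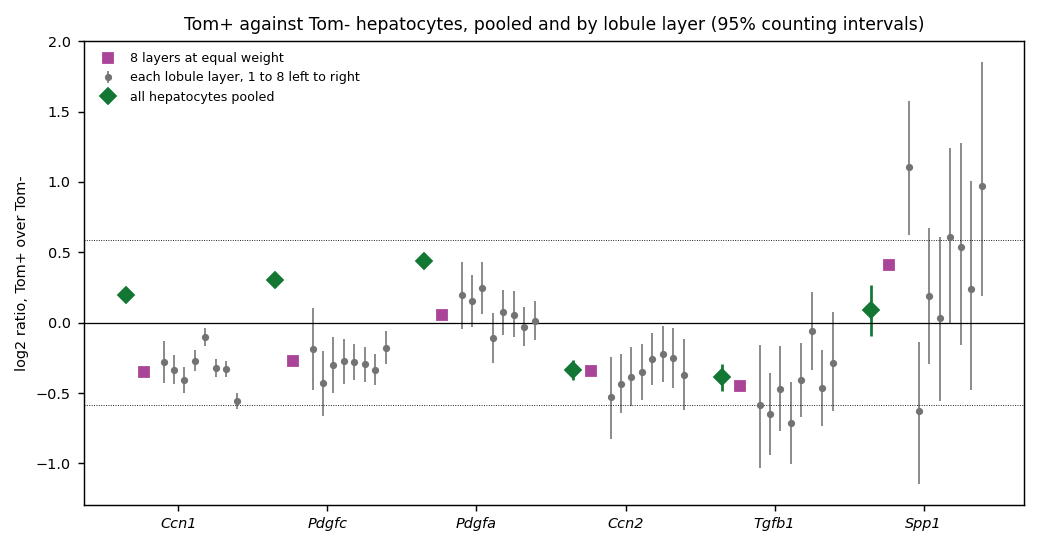
Log2 ratio of Tom+ over Tom- hepatocyte CPM for 6 members, over all hepatocytes and in each of the 8 lobule layers, with 95% counting intervals. Diamonds give all hepatocytes, squares the 8 layers at equal weight and grey points the layers from portal to central, and dotted lines mark 1.5-fold. Ccn1 and Pdgfc lie above 0 over all hepatocytes (0.20 and 0.30) and below 0 in all 8 layers, whereas Ccn2 and Tgfb1 lie below 0 throughout.

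Hepatocytes held some RNA of the other cell types, and the members differed in how they moved with it. Specific markers of endothelial (22 genes), macrophage (20 genes), stellate (13 genes) and cholangiocyte cells (7 genes) summed to 92.1, 262, 88.9 and 1.13 CPM in hepatocytes, that is 2.06%, 1.87%, 0.938% and 0.334% of their level in their own class. In Tom- and Tom+ hepatocytes the sums were 104 and 80.4 CPM for endothelial, 288 and 235 CPM for macrophage, 84.7 and 93.0 CPM for stellate and 1.03 and 1.23 CPM for cholangiocyte markers. The endothelial and macrophage sums were thus lower in Tom+ hepatocytes, as Tgfb1 and Ccn2 were. Layer by layer the stellate sum was lower in Tom+ cells as well, in 8 of 8 layers like the endothelial and macrophage sums, for example 39.2 against 49.9 CPM in the most portal and 99.98 against 114 CPM in the most central layer. The part of these sums in the Tgfb1 and Ccn2 differences was not tested. Hepatocytes were then divided within each layer by these marker UMIs into a lowest, a middle and a highest group, with 173, 329 and 853 CPM of the markers over both libraries. Macrophage markers were the largest part of the sum, cholangiocyte markers the smallest, and mesothelial markers were not in it. The groups therefore cannot show how Spp1, Tgfb2 or Tgfb3 moved with RNA carried from cells with cholangiocyte or mesothelial markers. Between the lowest and highest groups Ccn2 went from 5.69 to 13.4 CPM (2.36-fold), Tgfb1 from 3.02 to 6.75 CPM (2.23-fold), Pdgfb from 0.184 to 0.445 CPM (2.42-fold) and Pdgfd from 0.128 to 0.365 CPM (2.86-fold). Over both libraries Ccn1 (72.3 and 72.0 CPM), Pdgfa (14.3 and 14.4 CPM) and Pdgfc (17.9 and 18.7 CPM) were the same within 1.05-fold. The lowest group held 2807 Tom- and 4153 Tom+ cells, and the highest 4239 and 2713. Within Tom- cells Pdgfa went from 11.5 to 12.4 CPM, Pdgfc from 15.7 to 17.0 CPM and Ccn1 from 66.5 to 66.3 CPM. Within Tom+ cells they went from 16.0 to 17.3, from 19.2 to 21.0 and from 75.8 to 79.8 CPM. Over both libraries Spp1 was 1.35-fold and Tgfb2 1.72-fold higher in the highest group, and Tgfb3, at 0.105 and 0.119 CPM, did not differ beyond counting error. Spp1 went from 1.29 to 1.16 CPM in Tom- and from 0.997 to 1.96 CPM in Tom+ cells, so its direction differed between the libraries. Tgfb3 went from 0.161 to 0.103 CPM in Tom- and from 0.0720 to 0.142 CPM in Tom+ cells, and Tgfb2 from 0.100 to 0.191 CPM and from 0.216 to 0.445 CPM.

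Ccn2 and other members were also set against the markers of classes high in them. There were 11.3 Ccn2 UMIs per 100 stellate marker UMIs in stellate-like cells and 9.87 in hepatocytes. Per 100 endothelial marker UMIs there were 6.08 Ccn2 UMIs in endothelial-like cells and 9.52 in hepatocytes. For Tgfb1, the counts per 100 macrophage marker UMIs were 0.581 in macrophage-like cells and 1.77 in hepatocytes. Against endothelial markers they were 1.47 in endothelial-like cells and 5.01 in hepatocytes. In the markers' own class and in hepatocytes, Pdgfb against macrophage markers stood at 0.141 and 0.111. Likewise Pdgfd against endothelial markers stood at 0.338 and 0.228, Tgfb3 against stellate markers at 0.0789 and 0.135, and Spp1 against cholangiocyte markers at 88.7 and 113. Pdgfd was not set against the markers of its highest class, the cells with cholangiocyte markers, or against stellate markers, so its direction here holds for endothelial markers only. The stellate marker sum in Tom- hepatocytes was 49.9 CPM in the most portal and 114 CPM in the most central layer, where Ccn2 was 9.81 and 9.16 CPM. The part of carried RNA in the hepatocyte levels of these members was not tested. For Spp1 the highest single hepatocyte held 59 UMIs. A Ccn1 UMI was found in 71.6% of hepatocytes, a Pdgfc UMI in 42.0% and a Pdgfa UMI in 36.0%, at a median depth of 33673 UMIs.

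**Figure D4:**
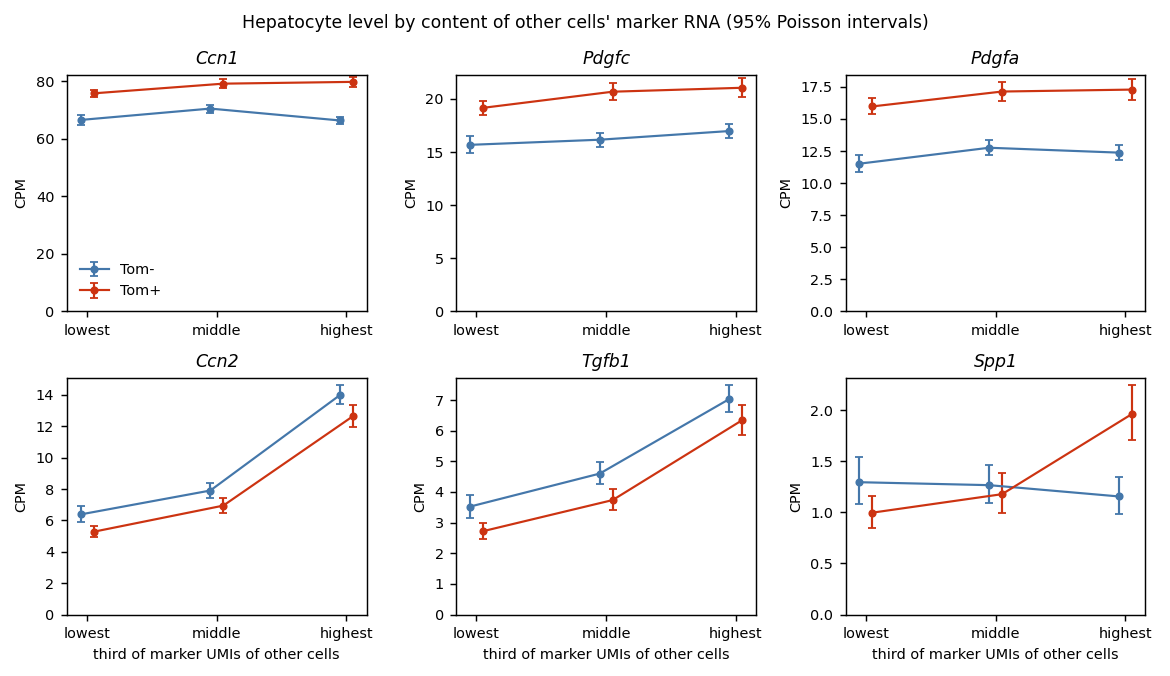
Hepatocyte level in CPM (linear axes from 0) of 6 members in cells with the lowest, middle and highest marker RNA of other cell types, divided within each lobule layer, for each library with 95% Poisson intervals. Over both libraries Ccn2 and Tgfb1 are 2.36-fold and 2.23-fold higher in the highest than in the lowest group, and Ccn1, Pdgfa and Pdgfc are the same within 1.05-fold. Within libraries Pdgfa goes from 11.5 to 12.4 CPM in Tom- and from 16.0 to 17.3 CPM in Tom+ cells. Pdgfc goes from 15.7 to 17.0 CPM and from 19.2 to 21.0 CPM.

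Outside hepatocytes, 8 classes had at least 50 cells in each library, and 53 pairs of a member and a class could be compared between Tom+ and Tom- cells. Of these, 9 passed 1.5-fold, 4 of them higher and 5 lower in Tom+ cells, beside 3.27% of all gene and class pairs that were higher and 2.84% that were lower. In stellate-like cells Ccn1 was lower in Tom+ (48.1 against 115 CPM, log2 ratio -1.26, -1.94 to -0.64), on 24 UMIs in 63 cells against 174 UMIs in 173 cells. Of all genes compared in stellate-like cells 3.92% were lower and 7.69% higher. tdTomato was at 748 CPM in Tom+ stellate-like cells, beside 814 CPM in Tom+ hepatocytes, and at 120 and 72.8 CPM in the Tom- library. How far carried hepatocyte RNA sets the tdTomato label and the Ccn1 level of these small cells was not tested. In macrophage-like cells Spp1 was lower (3.49 against 15.2 CPM, -2.13, -3.81 to -0.82), on 5 against 54 UMIs, and so was Ccn2 (25.8 against 45.2 CPM, -0.81, -1.37 to -0.29). In this class the stellate marker sum was 691 CPM in Tom- and 469 CPM in Tom+ cells, with Col1a1 at 74.0 and 32.1 CPM, and 532 of all 8871 genes compared were lower and 139 higher in Tom+ cells. The part of these in the Ccn2 and Spp1 differences was not tested. In endothelial-like cells Pdgfb was higher (14.5 against 4.99 CPM, 1.54, 0.69 to 2.39), on 26 against 25 UMIs, although after thinning 2.11% of Tom+ and 4.36% of Tom- cells held a UMI, which is the opposite order, so no direction is read from it. The other 5 pairs were in hepatocyte-sized classes, with Spp1 and Pdgfb higher among cells with macrophage markers (1.29 and 0.70), Spp1 higher among cells with endothelial markers (0.78), Tgfb1 lower among cells with cycling markers (-0.73) and Tgfb3 lower among cells with stellate markers (-0.73). In the cells with macrophage markers Gpnmb was at 52.5 CPM in Tom- and 106 CPM in Tom+ cells and Trem2 at 3.70 and 7.83 CPM, while the whole macrophage marker sum was 2271 and 2221 CPM. There 3.81% of all genes were higher and 0.887% lower, and the part of this in the Spp1 and Pdgfb values was not tested. In the cells with cycling markers the macrophage marker sum was 3404 CPM in Tom- and 1652 CPM in Tom+ cells, 6.72% of all genes were lower and 1.66% higher, and their part in the Tgfb1 value was not tested. Ccn2 in stellate-like cells was higher in Tom+ cells by 0.31 (0.18 to 0.45), under 1.5-fold. The sum of the stellate markers in this class was 8857 CPM in Tom- and 11332 CPM in Tom+ cells, with Col1a1 at 874 and 1191 CPM and Dcn at 869 and 1241 CPM, and its part in the Ccn2 difference was not tested.

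Genes that store, receive or answer these signals were also compared in hepatocytes. Of 11 genes for TGF-beta storage and activation 5 could be compared along the lobule and none passed 1.5-fold in either library, with medians of -0.13 and -0.16. Of 14 receptor genes 11 could be compared, and 2 were higher pericentrally in each library, near the share of all genes (11.5% in Tom- and 14.0% in Tom+ cells). They were Tgfbr2 (28.2 against 17.8 CPM) and the co-receptor Nrp1 (12.6 against 8.32 CPM) in Tom- cells and Nrp1 (14.7 against 7.90 CPM) and Cd44 (3.26 against 1.77 CPM) in Tom+ cells. Smad6, an inhibitory SMAD, was the 1 of 9 SMAD genes and regulators that was higher, again near that share, at 1.98 against 0.553 CPM in Tom- and 1.91 against 0.543 CPM in Tom+ cells. Among TGF-beta response genes Tgfbi, which encodes a secreted matrix protein, was higher pericentrally in both libraries (8.44 against 3.99 CPM in Tom- and 6.79 against 3.42 CPM in Tom+ cells). Of 4 genes for PDGF-C and PDGF-D activation 2 could be compared in Tom- cells, and Plau, encoding urokinase, was higher at 1.24 against 0.783 CPM, beside the 11.5% of all genes. In Tom+ cells 1 gene of that list could be compared and 0 were higher. The stellate marker sum in hepatocytes was also higher in the most central than in the most portal layer, as given above. The part of RNA carried from other cells in the receptor, SMAD, response and activation genes named here was not tested.

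Of 15 genes of YAP, TEAD and their targets 11 could be compared. In Tom- cells 1 was higher pericentrally, Nuak2 (18.7 against 6.11 CPM), and 1 was lower, Tead1 (18.4 against 28.0 CPM). In Tom+ cells 3 were higher, Nuak2, Crim1 and Axl, and the part of RNA carried from other cells in these was not tested either. The shares of all genes that were higher were 11.5% and 14.0%, and the list's median log2 ratio was 0.23 in Tom- and 0.29 in Tom+ cells beside 0.15 and 0.21 for all genes. Among other CCN genes Ccn5, a relative without the C-terminal domain, was far higher in pericentral hepatocytes, at 15.5 against 0.331 CPM in Tom- and 17.8 against 0.666 CPM in Tom+ cells, and Ccn6 had the reverse direction, at 0.163 against 1.97 CPM in Tom- cells.

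Immediate early genes are, like Ccn1, transcribed within minutes of a stimulus. Of 14 genes 13 could be compared in Tom- cells, with 6 higher, 1 lower and 6 neither pericentrally, and 12 in Tom+ cells, with 6 higher, 1 lower and 5 neither, beside 11.5% and 14.0% of all genes that were higher. In Tom- cells the largest differences were those of Fosb (4.18 against 0.913 CPM), Egr1 (157 against 52.7 CPM), Ier3 (7.08 against 2.59 CPM) and Klf6 (21.5 against 7.97 CPM). The lower one in both libraries, named after its values were seen, was Dusp1, at 136 against 231 CPM in Tom- cells. Between the sorts, Fos was lower in Tom+ cells both pericentrally (18.7 against 44.8 CPM) and periportally (9.84 against 25.6 CPM), as was Nr4a1 (2.99 against 4.55 CPM and 2.38 against 3.92 CPM). Fosb was lower pericentrally (0.855 against 4.18 CPM) and Atf3 periportally (1.23 against 1.99 CPM). In all, 3 of 13 and 3 of 12 genes of this list were lower, beside 1.04% and 1.06% of all genes. The list's median Tom+ over Tom- log2 ratio was -0.17 pericentrally and -0.18 periportally, beside 0.03 and -0.03 for all genes. Of 10 stellate activation genes 6 could be compared in Tom- hepatocytes, and 5 were higher pericentrally, among them Col1a1, Col1a2 and Col3a1, which also belong to the stellate markers, and Spon2 (71.2 against 18.8 CPM). The stellate marker sum had the same direction along the lobule, as given above, and its part in this was not tested.

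Genes whose levels ran most alike each member over 30 clusters of all cells, among 10903 genes, were Msn, Cd38 and Plekho2 for Tgfb1 (Pearson r 0.97, 0.97 and 0.97 on log2(CPM + 1)) and Col4a1, Agpat4 and Unc5a for Ccn2 (0.97, 0.96 and 0.96). For Spp1 they were Slc15a2, Ehf and Smim5 (0.92, 0.90 and 0.89), and for Pdgfd Vsig10, Lamb2 and Erbb2 (0.96, 0.95 and 0.94). Those nearest Ccn1 were Olfr1034, Bcl9l and Nt5e (0.94, 0.94 and 0.93). Pdgfa was nearest Fads3, Ctps2 and Zfp706 (0.90, 0.88 and 0.85) and Pdgfc nearest Efhd2, Sipa1l2 and Nceh1 (0.87, 0.85 and 0.85). For Pdgfb they were Slc43a2, Cttnbp2nl and Arrdc1 (0.92, 0.91 and 0.91), for Tgfb2 Dync2li1, Ninl and Sema5a (0.97, 0.96 and 0.96) and for Tgfb3 P3h4, Rhbdl3 and Ninl (0.96, 0.96 and 0.96). The clusters share libraries and carried RNA, and these values describe likeness only.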

How the data were processed

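Fixed cells were hybridised with probe pairs (Chromium Fixed RNA, mouse transcriptome, with added tdTomato probes), and the authors counted UMIs with Cell Ranger 7.2.0 (submitters' processing notes) on mm10. The deposited matrices hold raw UMI counts for 19073 features, 3 of them custom, in 1 Tom- and 1 Tom+ library, and were not normalised. Closely related genes can share probes.

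Cells with at most 0.05 of their UMIs from mitochondrial genes, 2000 to 10000 genes and at most 100000 UMIs were kept, following the study. Counts were scaled to 10000 per cell, and cells were clustered by the Leiden method (resolution 0.8, 20 neighbours, 30 principal components) on 2000 variable genes without the members and tdTomato (scanpy 1.11.5, leidenalg 0.10.2, igraph 0.11.9). Left out of hepatocytes were clusters whose median gene number was below 0.75 of the overall median, clusters in which Pecam1, Dcn or Ptprc reached 2.5 times its median over clusters, and any cluster with another cell type's markers at 10-fold. The limits for leaving out and naming clusters were set after the clusters had been seen. Scrublet marked 1 Tom- and 0 Tom+ cells and so did not work here, and doublets were not removed. A cut for the highest doublet scores was set at 10% of cells, so the shares past it compare classes and are not doublet rates. They were 9.44% of hepatocytes and 18.5 to 19.9% of the hepatocyte-sized cells with macrophage, endothelial or stellate markers. They were 0.201% or fewer of the endothelial-like, macrophage-like and stellate-like cells, 4.17% of mesothelial-like cells and 3.57% of the cells with cholangiocyte markers.

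UMIs were summed per library and class. CPM have exact Poisson intervals, shares exact Clopper-Pearson intervals after thinning to 5000 UMIs (475 Tom- and 242 Tom+ cells were shallower), and ratios exact conditional intervals, all at 95%. With 1 library per group no test was run. The fold limit was 1.5, for genes at 1 CPM or more on either side and 50 UMIs or more together, and the ratio step was tested on simulated data. All 10 members are named, and up to 4 genes past the limit with the largest change from each list in a comparison. The members, the gene lists and the rules were chosen with earlier results of these data known. Ccn1 and Ccn2 were matched to older symbols through RefSeq, and promoters come from RefSeq (GRCm38.p6). Alternatives changed the cell and gene filters, clustering, doublets, scaling, thinning, layers and minimum. Part of the TGF-beta response list is not reported here.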

Additional observations from a re-analysis of the deposited data

Results flagged for a closer look

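For Ccn2 the Tom+ over Tom- log2 ratio was 0.31 in stellate-like cells and -0.32 in pericentral hepatocytes, -0.46 in periportal hepatocytes and -0.81 in macrophage-like cells, with counting intervals on opposite sides of 0. For Spp1 it was 0.71 in pericentral hepatocytes and -2.13 in macrophage-like cells. Each was noted because the direction differs between cell classes, and the differences were not tested, since each value compares 1 library with 1 library. Without hepatocytes of 5 or more Spp1 UMIs the pericentral Spp1 ratio was 0.06, and the macrophage-like value rests on 5 Tom+ UMIs. The stellate marker sum was 8857 CPM in Tom- and 11332 CPM in Tom+ stellate-like cells and 691 and 469 CPM in macrophage-like cells, the same directions as Ccn2, and its part was not tested.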

How the results depend on the processing

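No paired analysis was possible because there is 1 library on each side. The counts of members past 1.5-fold are small, and of the recomputed counts 22 moved by more than 1.5 times and 72 stayed within 1.5 times. Between the sorts, the pericentral count of 1 became 0 with a minimum of 10 CPM, with the few-gene clusters kept, at resolution 1.2, with layers from 4 markers, without clusters of 90% or more Tom+ cells and without hepatocytes of 5 or more Spp1 UMIs, and 2 with layers cut within each library (Pdgfa and Spp1). Spp1 itself passed pericentrally in 10 of 17 alternatives. Tgfb1 passed as lower with cells thinned to 5000 UMIs (-0.78), and Ccn1 in hepatocytes without marker UMIs (-0.84). The count of 0 over all hepatocytes became 1 with no minimum, with few-gene clusters kept and in hepatocytes without marker UMIs of other cells. The periportal count of 0 became 2 with no minimum and 1 with narrower limits on genes per cell, a marker limit of 4 times the median cluster, the mean over cells, 5 layers and layers from 4 markers. Along the lobule, the Tom- count of 4 became 7 with no minimum and 0 in hepatocytes without marker UMIs, and the Tom+ count of 3 became 5 with no minimum and with the marker limit of 4, where Ccn2 passed as lower, and 0 without marker UMIs. In that set, 133 cells over both libraries, the members miss the UMI minimum, and the log2 ratios were 1.84 (Pdgfa), 2.52 (Pdgfc) and 3.32 (Ccn1) in Tom- and -1.26 (Pdgfa), 2.65 (Pdgfc) and 5.37 (Ccn1) in Tom+ cells, so that of these Pdgfa in Tom+ cells turned. Outside hepatocytes 9 became 5 at a minimum of 10 CPM. Over all hepatocytes, Ccn1 turned from higher to lower in Tom+ cells at equal layer weight (-0.35) and without marker UMIs (-0.64), Pdgfc at equal layer weight (-0.27) and Pdgfa without marker UMIs (-0.29). Layers at equal weight and hepatocytes without high Spp1 counts were chosen after seeing the data. The causes were not tested. With 1 library per group, animal, library and sort cannot be told apart, and classes of 11 to 63 Tom+ cells limit the values outside hepatocytes.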
